A study of Mus musculus with 31 samples.

Results

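The genes described here are the receptors for the constant part of immunoglobulin G (IgG) and the signalling proteins they work through: Fcgr1, Fcgr2b, Fcgr3 and Fcgr4 for the receptors, Fcer1g and Tyrobp for the adaptors, Trem2 for a receptor that signals through Tyrobp, and Syk for the kinase. They were taken by name, and all 8 of 8 matched a row among the 47069 genes measured. The measurements come from 31 single cells of the right lung lobes of 10-week-old Csf1r-GFP mice, collected 7 days after sham surgery, an operation that opens the chest cavity. The reporter places green fluorescent protein under Csf1r, the gene of the CSF1 receptor of monocytes and macrophages. The sort used CD45, the reporter and F4/80, and its label also names Ly6G without giving a sign. All 31 cells belong to 1 group, no other group enters here, and the labels do not say which animal a cell came from. The study asked which macrophage populations the lung holds. The cells of 1 group are not replicates of it, so no test was run. Intervals are exact Clopper-Pearson 95% intervals and cover only the error of counting cells.

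Fc gamma receptors bind antibody that coats a particle or a cell and lead to its uptake. The activating receptors Fcgr1, Fcgr3 and Fcgr4 pair with the common gamma chain, the product of Fcer1g, whose tail carries an immunoreceptor tyrosine-based activation motif (ITAM), a pair of tyrosines that Src-family kinases phosphorylate and that then recruit Syk. Tyrobp (DAP12) is a second ITAM adaptor, used by Trem2 and many other myeloid receptors, while Fcgr2b carries an inhibitory motif (ITIM) in its own tail and recruits phosphatases.

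Levels are given in FPKM (fragments scaled to transcript length and library size), and a gene is called present at FPKM 1 or more. Levels of different genes were compared in FPKM, except where counts are named. Libraries held 120835 to 4059833 expected counts (median 1072993). The share of counts on nuclear genes that encode proteins was 87.4 to 95.6% in 21 libraries and 32.8 to 61.6% in the other 10, which stand apart and are called low-coding below. Of the 31 cells, 20 had Lyz2, the lysozyme gene of myeloid cells, at 1000 FPKM or more, and these Lyz2-high cells all lay among the 21. Lyz2 was 1229 FPKM in C7, just inside that line, and 553 FPKM in D10, just outside it. The label of macrophages was checked against a list of 10 macrophage and monocyte genes, of which 8 were present in at least 50% of the Lyz2-high cells. The list holds Lyz2, which chose the cells, the sort genes Csf1r, Adgre1 (F4/80) and Ptprc (CD45), and Fcgr1. Of the 5 others, Ctss, Cd14, Cd68, Itgam and Mertk, all but Mertk reached 50%, with the protease gene Ctss in 20 of 20. The 6 alveolar macrophage genes (Siglecf, Marco and Car4 among them) and the 6 natural killer cell genes were present in no cell. The summed level of these 5 was 2673 to 10440 FPKM in the Lyz2-high cells and 0 to 2994 in the low-coding libraries, so the ranges overlapped. Of the classical monocyte list 5 of 6 genes reached 50% (Ccr2 in 16 cells), and of the nonclassical monocyte and interstitial macrophage lists 1 of 6 each (Nr4a1 in 13 and Apoe in 18). Of the neutrophil list, Cxcr2 was present in 10 of the 20, Csf3r in 9, Ly6g in 7 and S100a8 in 3 (up to 1594 FPKM), with S100a9 and Retnlg in none. Cxcr2 reached at most 9.74 FPKM in the 20 (median 0.795), against 12.16 to 91.6 in the low-coding libraries, where all 10 held it. Csf3r had a median of 0.455 FPKM in the 20 and of 13.61 in the low-coding libraries, 9 of which held it. Ly6g and S100a8 were present in 0 low-coding libraries. The summed neutrophil list was 0 to 1768 FPKM in the Lyz2-high cells (median 8.945) and 14.8 to 124.5 in the low-coding libraries (median 56.38). The mast cell and epithelial lists were at 0 in all 20, and no gene of the other lists was found in more cells than Ighm (7 cells) for B cells, Vwf (4) for endothelium, and Cd4, Flt3, Itgb3 and Col1a1 (1 each) for T cells, dendritic cells, platelets and fibroblasts. No doublet caller was run on 31 cells.

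The stretches of coding sequence that give the adaptors and the inhibitory receptor their opposite roles are shown first, because the results turn on these 3 genes. The ITAM stretch of Fcer1g lies in exons 4 and 5 of 5 (minus strand, GRCm38, chr1:171229889-171230072, a span that holds an intron), that of Tyrobp in exons 4 and 5 of 5 (plus strand, chr7:30415670-30417382, likewise), and the ITIM stretch of Fcgr2b in exon 7 of 7 of the transcript Fcgr2b-202 (minus strand, chr1:170961071-170961088). Each is written 5′ to 3′ with the codons of the motif tyrosines in capitals.
Fcer1g ITAM: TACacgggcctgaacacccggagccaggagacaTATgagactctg
Tyrobp ITAM: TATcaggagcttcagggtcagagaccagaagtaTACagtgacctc
Fcgr2b ITIM: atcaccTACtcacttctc
Both ITAM stretches are 45 bases long. The pattern searched for was a tyrosine codon, any 2 codons and a leucine or isoleucine codon, repeated after 6 to 12 codons. It was found once each in Fcer1g and Tyrobp and in 0 of the other 6 members, and 6.49% of 21815 protein-coding genes held it. The looser ITIM pattern (isoleucine, leucine, valine or serine, any residue, tyrosine, any 2 residues, then isoleucine, leucine or valine) was found once each in Fcgr2b, Fcgr4, Fcer1g and Tyrobp, 3 times in Fcgr1 and in 48.8% of those genes, so a match to it alone sets no gene apart.

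Of the IgG receptor genes 3 lie close together on chromosome 1, and Fcgr2b and Fcgr3 share sequence, which bears on how their reads can be assigned. In GRCm38 coordinates Fcgr2b (ENSMUSG00000026656) spans 170958617 to 170976547, Fcgr4 (ENSMUSG00000059089) 171018920 to 171029761, Fcgr3 (ENSMUSG00000059498) 171051174 to 171064935 and Fcer1g (ENSMUSG00000058715) 171229572 to 171234365. Fcgr1 (ENSMUSG00000015947) lies apart on chromosome 3 (96282909 to 96293969), Tyrobp (ENSMUSG00000030579) on chromosome 7 (30413760 to 30417585), Trem2 (ENSMUSG00000023992) on chromosome 17 (48346401 to 48354147) and Syk (ENSMUSG00000021457) on chromosome 13 (52583173 to 52648792). The coding sequences of Fcgr2b and Fcgr3 were identical at 85.2% of 789 aligned bases, and the other 5 receptor pairs at 65.0 to 69.7%. Their longest identical run was 129 bases, in exons 3 and 4 of either gene, and it is the same letters in both: chr1:170966674-170968081 in Fcgr2b and chr1:171054167-171057792 in Fcgr3, each span holding an intron.
Fcgr2b and Fcgr3 shared run: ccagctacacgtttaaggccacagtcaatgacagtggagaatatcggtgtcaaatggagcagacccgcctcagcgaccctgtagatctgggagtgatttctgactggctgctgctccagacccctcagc
Of the 50-base words of Fcgr2b-202, 166 of 1413 also occurred in Fcgr3 and in no other gene. Reads from such words cannot be told apart between these genes. The RSEM counts, which share out ambiguous reads, were not whole numbers in 27 of 28 cells for Fcgr2b and in 9 of 17 for Fcgr3 (tolerance 0.005). Of those 27 cells, Fcgr3 was also not whole in 9, whole in 5 and at 0 in 13, so most Fcgr2b counts that were not whole had no such count of Fcgr3 beside them. The other 6 members shared no 50-base word with any other gene, and their counts were whole in every cell.

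Tyrobp and Fcer1g were the most abundant members in the Lyz2-high cells and the most widely found there. In the 20 Lyz2-high cells Tyrobp was present in 20 (100%, interval 83.2 to 100%), at 1587 FPKM in the lowest cell, 5838 at the median and 15128 in the highest. Fcer1g was also present in 20 of 20, from 3.89 FPKM in B7 through a median of 3991 to 10191 in D4. By median level Tyrobp ranked 13 and Fcer1g 23 among the 47069 genes. Only 143 genes (0.304%) were present in every Lyz2-high cell. B7 stood apart for Fcer1g: its 2 expected counts lay beside 5574 for Tyrobp, and the next lowest cell, C7, had 1485 FPKM of Fcer1g.

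**Figure D1:**
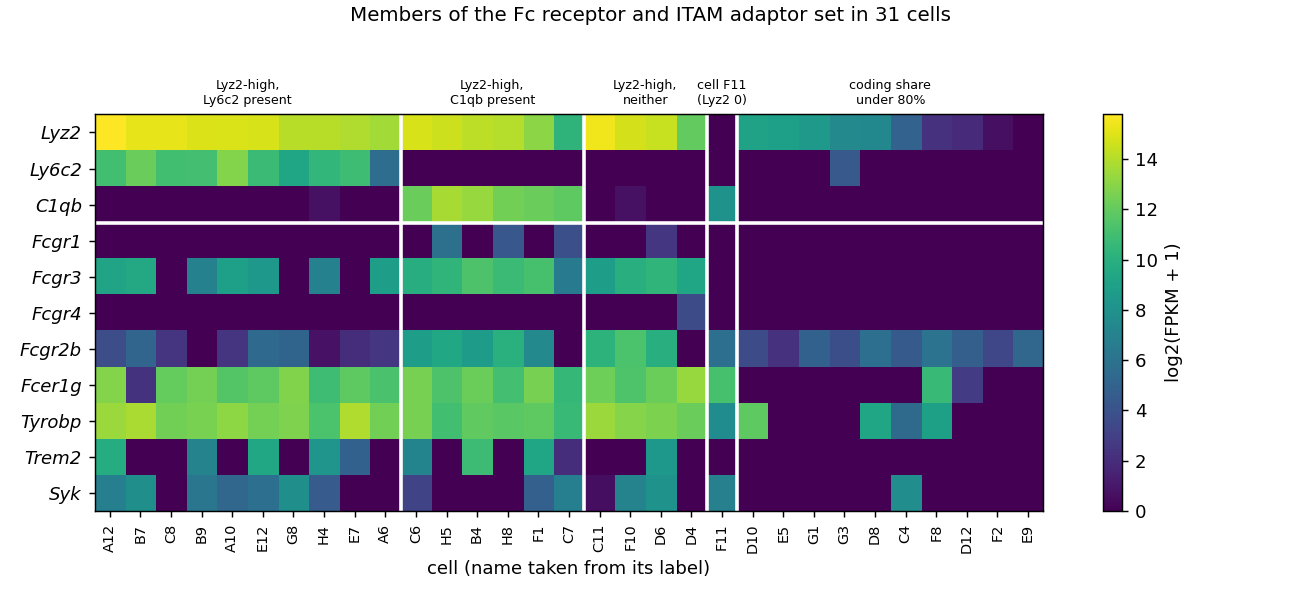
Level of Lyz2, Ly6c2, C1qb and the 8 members (rows) in each of 31 cells (columns) as log2(FPKM + 1), with cells ordered by set and then by Lyz2. Tyrobp and Fcer1g fill the 20 Lyz2-high columns apart from Fcer1g in B7, Fcgr4 is filled in 1 column, and Fcgr2b is the member seen in all 10 low-coding libraries.

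The 2 adaptors were of similar level within a cell. The ratio of Tyrobp to Fcer1g, taken as the difference of log2(FPKM + 1), had a median of 0.41, which is 1.33-fold, and an SD of 2.59 over the 20 cells (0.80 without B7). It ran from -1.15 in D4 to 11.47 in B7, and the highest cell after B7 had 2.05. Tyrobp was the higher of the pair in 15 cells and Fcer1g in 5, and the levels lay within 4-fold in 18 of 20. Across the 20 cells their levels were weakly related (Spearman's rho 0.24, and 0.14 to 0.43 with each cell left out in turn). Over all 31 cells rho was 0.72, with the low-coding libraries mostly at or near 0 for both. These points share 1 sort and differ in depth, so rho is a description.

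**Figure D2:**
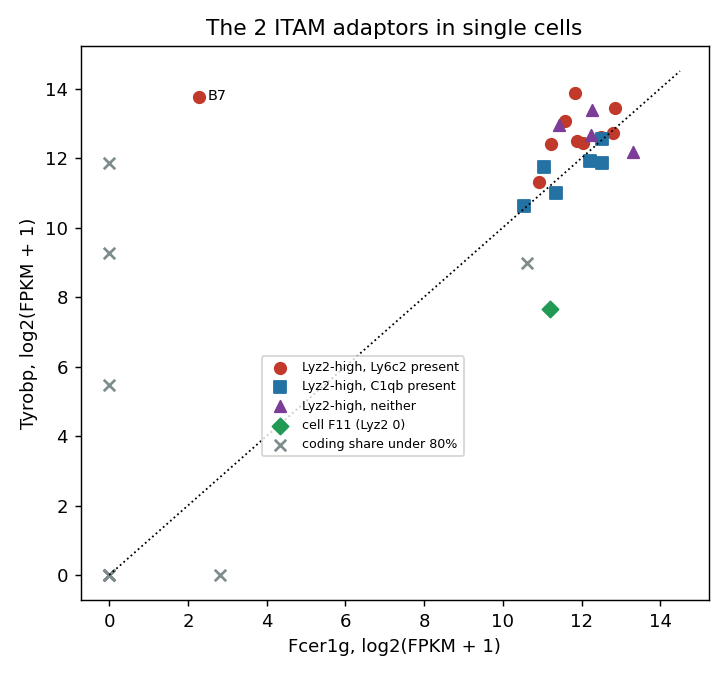
Tyrobp against Fcer1g in 31 cells, both as log2(FPKM + 1), with the dotted line marking equal levels and symbols marking the sets of cells. The Lyz2-high cells lie near the line at the upper right, 15 of 20 above it, and B7 lies at 3.89 FPKM of Fcer1g and 13872 of Tyrobp; 5 low-coding libraries overlap at 0 for both genes.

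Outside the Lyz2-high cells the adaptors were found less evenly. Cell F11, the library with a high coding share and no Lyz2, had 2364 FPKM of Fcer1g and 202 of Tyrobp, together with 258 FPKM of the complement gene C1qb. Of the 10 low-coding libraries, 4 had Tyrobp (43.2 FPKM in C4, 500 in F8, 621 in D8 and 3703 in D10) and 2 had Fcer1g (6.06 in D12 and 1558 in F8). Only F8 had both, so that both adaptors were present in 22 of 31 cells (71.0%, interval 52.0 to 85.8%).

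Fcgr3 was the leading activating IgG receptor. It encodes the low-affinity receptor CD16 and was present in 17 of 20 Lyz2-high cells (85.0%, 62.1 to 96.8%), at 85.4 FPKM or more in each, with a median over all 20 of 537 and a highest value of 2621 in B4. The 3 cells without it were E7, G8 and C8, and it was at 0 in all 11 other cells. Fcgr1, the high-affinity receptor CD64 that is widely used to mark macrophages, was present in 4 of 20 cells (5.73 to 43.7%), at 4.66 FPKM in D6, 13.5 in C7, 18.8 in H8 and 54.6 in H5. Fcgr4, the receptor for IgG2a and IgG2b that nonclassical monocytes carry, was present in 1 of 20 (5.0%, 0.127 to 24.9%), at 11.5 FPKM in D4 from 21 expected counts. Of the summed FPKM of the 3 activating receptors, Fcgr3 made up at least 86.4% in every Lyz2-high cell that had any.

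Fcgr2b, the inhibitory receptor CD32B, reached FPKM 1 in 27 of 31 cells (87.1%, 70.2 to 96.4%), more than any other member, and in 16 of 20 Lyz2-high cells. In the latter it had a median of 33.9 FPKM and a highest value of 2563 in F10. It was also present in 10 of the 10 low-coding libraries, at 3.77 to 63.95 FPKM, where Fcgr1, Fcgr3, Fcgr4 and Trem2 were at 0. Among all genes, 1.69% were present in all 10 of those libraries.

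The Fcgr2b values came in 2 kinds that differ in the transcript they were assigned to. Expected count, FPKM and library total together imply the effective length that RSEM used for a gene, which in genes with 1 annotated transcript lay a median of 178.2 bases below the transcript length. For Fcgr2b it could be computed in the 27 cells with at least 5 counts. In 17 of them it was 3337 to 3377 bases, within 5% of the 3366 expected from the 3544-base transcript Fcgr2b-201. In the other 10 it was 1253 to 1659, and 9 of these lay within 5% of the 1284 expected from the 1462-base Fcgr2b-202, with F1 between transcripts. The long kind was found in 9 low-coding libraries and 8 Lyz2-high cells (1 of them, H4 at 0.69 FPKM, under the level called present), at 0.69 to 63.95 FPKM from 7.29 to 120.0 counts. The short kind was found in 9 Lyz2-high cells and F11, at 12.2 to 2563 FPKM, and in 0 low-coding libraries. In the long transcript, 174 of the 50-base words, between bases 2439 and 2736 and thus after the coding end at base 1144, also occurred in transcripts of 10 or more other genes, with up to 104 genes for a single word. The short transcript held no such word. Whether reads of those other genes contributed to the long kind was not tested. Counting the short kind alone, Fcgr2b was found in 10 of 31 cells (32.3%, 16.7 to 51.4%), of which 9 were Lyz2-high.

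**Figure D3:**
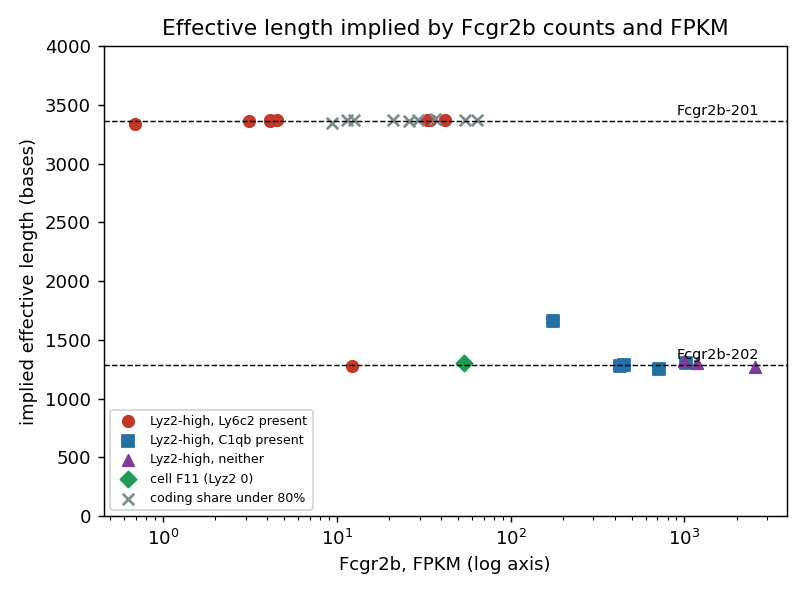
Effective length implied for Fcgr2b (bases) against its FPKM (log axis) in the 27 cells with at least 5 counts, with dashed lines at the lengths expected from Fcgr2b-201 and Fcgr2b-202. The 9 low-coding libraries and 8 Ly6c2-positive cells lie on the upper line below 64 FPKM, and the 8 cells above 100 FPKM lie on or near the lower line.

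Within a cell the inhibitory receptor was mostly below the activating ones. Fcgr2b exceeded the sum of Fcgr1, Fcgr3 and Fcgr4 in 5 of 20 Lyz2-high cells. With the Lyz2 line at 100 FPKM, which adds 5 low-coding libraries, it did in 10 of 25. In F10 it was 2563 against 1009 FPKM and in C11 1185 against 454. In the other 3, E7, G8 and C8, no activating receptor was found and Fcgr2b was 3.13, 33.2 and 4.15 FPKM, all of the long kind. With the long kind set to 0 the count was 2 of 20.

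Fcgr2b and Fcgr3 differed with the monocyte gene Ly6c2, part of the Ly6C antigen, and with C1qb, a complement gene of tissue macrophages. Of the Lyz2-high cells, 10 had Ly6c2, 6 had C1qb, 4 had neither and 0 had both. Total counts overlapped between these sets, at 521492 to 3526674 with Ly6c2, 767318 to 4059833 with C1qb and 908472 to 1959746 with neither. Their medians were 1233765, 2177839 and 1770476, so the cells with Ly6c2 were the shallowest by median, and the part of depth in what follows was not tested. Fcgr2b reached at most 41.8 FPKM in the 10 cells with Ly6c2 (median 4.35). It was 0 in C7 and 174 to 1019 FPKM in the other 5 cells with C1qb, and 0 in D4 and 1001 to 2563 FPKM in the other 3 cells with neither gene. So 8 of the 10 cells without Ly6c2 lay above every cell with it, and the 2 exceptions were at 0. The share of all genes that part these cells as far was not counted, so this does not set Fcgr2b apart from other genes. The short kind of Fcgr2b was found in 1 of the 10 cells with Ly6c2, A12 at 12.2 FPKM (interval of the share 0.253 to 44.5%), and in 8 of the 10 without (44.4 to 97.5%).

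Fcgr3 was also lower in cells with Ly6c2, with more overlap. Its median was 231 FPKM in the cells with Ly6c2 (0 to 732), 1497 with C1qb (85.4 to 2621) and 830 with neither (454 to 1259), and 7 of the 10 cells without Ly6c2 lay above the highest cell with it. For Fcgr3 too the share of all genes that do so was not counted. All 3 cells that lacked Fcgr3 had Ly6c2. Fcgr1 was present in 3 of 6 cells with C1qb, in D6 of the 4 with neither and in 0 of 10 with Ly6c2 (upper bound 30.8%). Tyrobp had its lowest median with C1qb, at 3582 FPKM, against 6483 with Ly6c2 and 7164 with neither, but the ranges overlapped (1587 to 5939, 2518 to 15128 and 4602 to 10752). Fcer1g had medians of 3675, 3712 and 4881 FPKM in the same order. Ly6c2 and C1qb divide 1 sample, so these differences were not tested, and earlier results of these data had shown both genes to mark different cells.

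**Figure D4:**
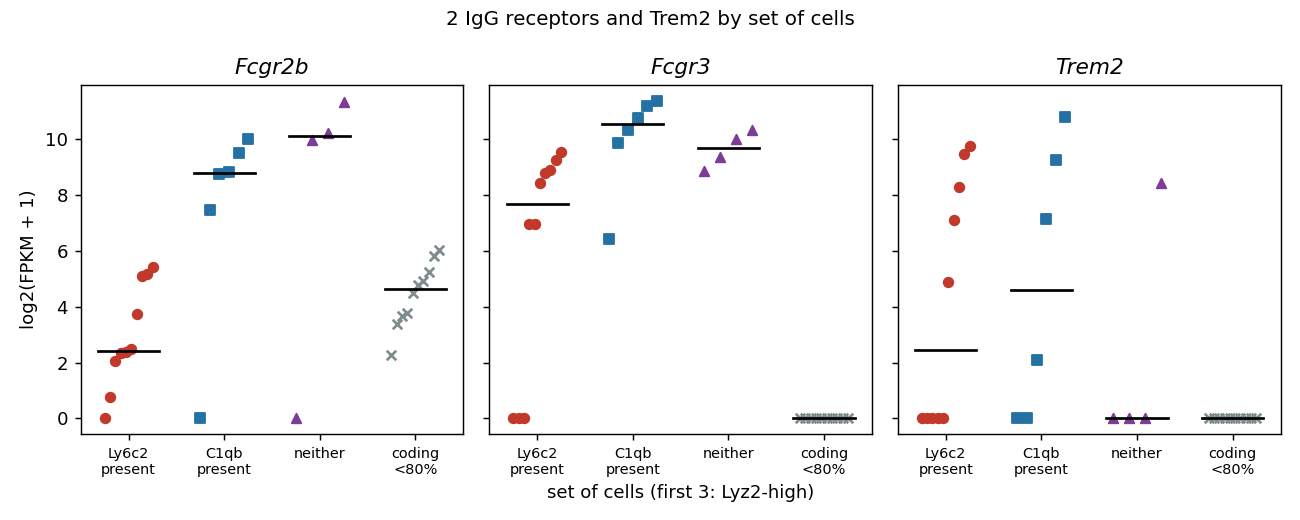
Fcgr2b, Fcgr3 and Trem2 as log2(FPKM + 1) in Lyz2-high cells with Ly6c2 (10), C1qb (6) or neither (4) and in the 10 low-coding libraries, with each point a cell and each bar a median. Fcgr2b stays at or below 41.8 FPKM with Ly6c2 and is 174 FPKM or more in 8 of the 10 cells without it, while Trem2 is at 0 in some cells of every set.

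Trem2, a lipid-sensing receptor of tissue macrophages, was present or absent in equal numbers of the Lyz2-high cells. It was found in 10 of 20 Lyz2-high cells (27.2 to 72.8%) and in no other cell, at a median of 324 FPKM where present, from 3.21 in C7 to 1769 in B4. It was present in 5 of 10 cells with Ly6c2 (up to 862 FPKM in A12), in 4 of 6 with C1qb and in 1 of 4 with neither (343 in D6). Syk, the kinase that docks on phosphorylated ITAMs, was present in 12 of 20 Lyz2-high cells (60.0%, 36.1 to 80.9%), with a median of 24.6 FPKM and a highest value of 271 in D6. It was also found in F11 (115 FPKM) and in the low-coding library C4 (212 FPKM). The implied length of Syk was 2349 to 5182 bases, so its values too rest on transcripts of different length. In the Lyz2-high cells the highest Syk value was under the lowest Tyrobp value, whereas in C4 Syk was above Tyrobp (43.2 FPKM).

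Over the set, the members ordered by median FPKM in Lyz2-high cells as Tyrobp, Fcer1g, Fcgr3, Fcgr2b, Syk and Trem2 (1.6 FPKM), with Fcgr1 and Fcgr4 at 0. The ranges of every neighbouring pair in this order overlapped. Of the 8 members 6 were present in at least 50% of the 20 cells, and 3.04% of all genes were. Fcgr2b is among the 6, but its short kind alone was found in 9 of the 20 cells, which is under 50%. Of these 6, Fcgr3 and Trem2 were present in no low-coding library, as were 21.9% of all genes at that presence. A Lyz2-high cell held a median of 5 members (SD 0.97), from 3 in C8 to 7 in D6, and no cell held all 8. A low-coding library held a median of 1.5 members (1 to 3), Fcgr2b always among them. These numbers of members count both kinds of Fcgr2b, and its short kind was found in 0 low-coding libraries.

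Among the 28 pairs of members, Spearman's rho over the 20 Lyz2-high cells ran from -0.51 for Fcgr1, present in 4 of them, and Tyrobp to 0.65 for Fcgr2b and Fcgr3. The latter 2 genes were present together in 13 cells, Fcgr2b alone in 3 and Fcgr3 alone in 4, and they share the run of sequence shown above. The 3 cells with Fcgr2b alone (E7, G8 and C8) and some of the 13 held the long kind of Fcgr2b. The rho of 0.65 thus mixes the 2 kinds. Fcgr3 and Fcer1g, receptor and adaptor, were both present in 17 cells, with a rho of 0.04. Trem2 and its adaptor Tyrobp had a rho of -0.09 with 10 cells holding both, and Tyrobp and Syk had a rho of 0.37 with 12 cells holding both.

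The genes most like each member were taken as the 5 with the highest rho over the Lyz2-high cells among the 1431 genes present in at least 50% of them. For Tyrobp these were S100a6 (0.80), Fgfr1op2, Pfas, Emilin2 and Msrb1 (0.72). For Fcer1g they were Gm42553 (0.72), Hexdc, Ftsj3, Pla2g7 and Selenos (0.66). Fcgr3 was ranked with Baz2b, Aif1, Herpud1 (0.66 each), Fcgr2b and Rgs10 (0.65 each), and Fcgr2b with Tgfb1 (0.69), Fcgr3, Pet100, Matr3 and P2rx4 (0.62). Trem2 was ranked with Tmem258 (0.75), Grcc10, Atp5mpl, Drap1 and Metap2 (0.62), and Syk with Cfl1 (0.78), Elob, Tomm20, Cox5a and Prdx2 (0.68). With 20 cells and many of these genes at 0 in several of them, the lists depend on the filter. With no filter, 4 of the 5 genes of Tyrobp and 1 of the 5 of Fcer1g were listed again.

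The other genes of the pathway were taken from lists and are counted in the 20 Lyz2-high cells. Of 12 other Fc receptor genes 0 were present in at least 50% of the cells and 8 were in none. The most widely found were the polymeric immunoglobulin receptor gene Pigr (5 cells, at most 5.80 FPKM), the neonatal receptor gene Fcgrt (4 cells, up to 879 FPKM) and Fcrls (2 cells). The list of receptors that couple to Tyrobp had 17 genes, among them an adaptor gene. Of these 17 genes 1 reached 50%, Cd300c2 (11 cells, median 134 FPKM), followed by Trem1 and Sirpb1c (8 each), and 5 were in none. Of 10 receptors that couple to the common gamma chain 2 did: the C-type lectin genes Clec4e, or Mincle (15 cells, median 297 FPKM), and Clec4d (10 cells). Clec4n, which encodes Dectin-2, was present in 8 and 5 genes were in none.

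Downstream of the receptors, the Src-family kinase gene Lyn was present in 16 of 20 cells (median 122 FPKM) and Fgr in 8, and 4 of the 10 kinase genes were in none. Of 19 Syk substrates and adaptors 4 reached 50%, led by the protein kinase C gene Prkcd (18 cells), the adaptor gene Lcp2, or SLP-76 (17), and Plcg2 (11), and 2 were in none. All 7 genes of the NADPH oxidase, which makes the oxidative burst after uptake, reached 50%. Its membrane subunit genes Cyba and Cybb were present in 20 of 20, at medians of 1672 and 564 FPKM, and Rac1 in 19.

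Of 16 other ITIM receptor genes 5 reached 50%, with Sirpa in 18 cells (median 69.9 FPKM), Pirb in 17 (105 FPKM) and Clec12a in 14 (129 FPKM), and 2 were in none. Pirb, Cd300a and Pecam1 were, like Fcgr2b, present in 10 of the 10 low-coding libraries. The rest of these ITIM receptor genes were not, and 1.69% of all genes were. Of 8 phosphatases and inhibitory adaptors 3 reached 50%: Ptprc, which encodes CD45 (19 cells, 432 FPKM), Ptpn6, which encodes SHP-1 (12 cells, 91.5 FPKM), and Inpp5d, which encodes the SHIP1 phosphatase recruited by Fcgr2b (11 cells, 3.33 FPKM).

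**Figure D5:**
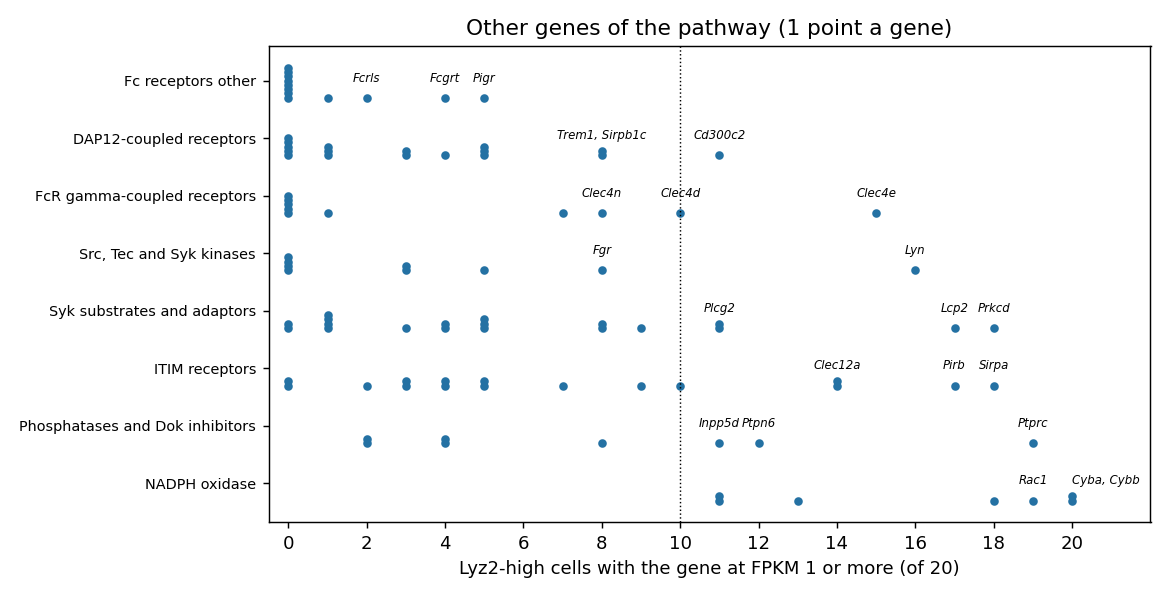
Number of the 20 Lyz2-high cells in which genes of the 8 pathway lists were present at FPKM 1 or more, with each point a gene and the dotted line at 10 cells. The NADPH oxidase genes all lie at 11 cells or more, whereas the 12 other Fc receptor genes lie at 5 or fewer.

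Promoter sequence from RefSeq (GRCm38.p6) was at hand for 7 of the 8 members, and it is shown for 2 that differ in how widely they were found, Fcer1g in 20 and Fcgr1 in 4 of the 20 cells. The letters AGGAAG, to which the myeloid factor PU.1 and other ETS factors can bind, were searched for on both strands within 250 bases upstream of the start and are in capitals, as CTTCCT where they lie on the other strand. The 2 matches in Fcgr1 overlap. The windows are chr1:171234366-171234599 for Fcer1g, ended at its first annotated exon, and chr3:96293970-96294219 for Fcgr1, both on the minus strand.
Fcer1g upstream: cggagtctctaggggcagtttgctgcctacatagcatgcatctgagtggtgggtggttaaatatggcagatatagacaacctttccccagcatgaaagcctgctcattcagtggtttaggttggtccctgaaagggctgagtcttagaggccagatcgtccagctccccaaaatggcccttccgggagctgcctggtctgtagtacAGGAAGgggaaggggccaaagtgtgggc
Fcgr1 upstream: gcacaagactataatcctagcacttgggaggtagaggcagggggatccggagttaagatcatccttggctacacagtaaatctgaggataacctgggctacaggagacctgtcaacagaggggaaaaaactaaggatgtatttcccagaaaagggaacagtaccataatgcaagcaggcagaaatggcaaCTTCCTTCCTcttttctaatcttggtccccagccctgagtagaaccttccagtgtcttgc
The letters were found upstream of 5 of the 7 members (Fcgr1, Fcgr3, Fcgr4, Fcer1g and Trem2, but not Fcgr2b or Syk) and in 29.5% of 32851 promoters of the same length. Annotated exons cover most of the 250 bases of the Fcgr2b window and all 250 of the first of the 2 Syk windows, so these hold little or no sequence outside exons. A match is a description of the letters only, and genes with it were found in anything from 1 to 20 of the 20 cells.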

How the data were processed

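Single cells were captured on a Fluidigm C1 system, and cDNA from polyadenylated RNA was amplified by SMARTer chemistry and made into Nextera XT libraries, per the labels' protocols. This chemistry marks no strand and carries no molecular identifiers. CASAVA 1.8, Trimmomatic, RSEM and the GRCm38 build are named per the submitters' processing notes, while no source used here gives the annotation release or read length. The authors deposited a table of RSEM expected counts and a table of FPKM values. The count table held 44 columns that matched no sample, and these were not used. Of 47069 gene identifiers 46488 matched a symbol.

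Everything else was computed in Python 3.11.15 with pandas 2.3.3, scipy 1.17.1 and Biopython 1.88. Presence was FPKM 1 or more, levels were log2(FPKM + 1), and the 31 cells counted as 1 sample, so no test was made. The computation of the likeness ranking was checked on simulated counts in which planted genes followed Tyrobp closely. That check does not cover how stable the 5 genes named for a member are. The intervals were checked against those of a scipy function. Transcripts, exons and coordinates (1-based) came from GENCODE M21 on GRCm38. Motifs were found by translating coding sequence, since no protein table was used. Named are the members, Lyz2, C1qb and Ly6c2, the 3 genes of each list found in most Lyz2-high cells, and the 5 genes most like each member present in at least 50% of them, except that a kinase gene is not reported here. Cd300a, Pecam1, Cd14, Cd68, Itgam, Mertk, Adgre1, S100a8, S100a9 and Retnlg were named after their values had been seen. The members and lists were chosen with earlier results of these data known. Alternatives were other minimums, pseudocounts, scalings, filters and Lyz2 lines, thinning to 120829 counts, and leaving out the low-coding libraries. The split of Fcgr2b by implied length and the values without B7 were added after the data had been seen.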

Additional observations from a re-analysis of the deposited data

How the results depend on the processing

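Thinned to 120829 counts a cell and called present at 1 count or more, Fcgr1 was present in 3 of 31 cells in place of 4 and Fcer1g in 21 in place of 23. Fcgr4 (1) and Trem2 (10) kept their numbers. Syk was in 15 cells at an expected count of 1 or more before thinning, in 14 at FPKM 1 or more, and in 14 after thinning. Loss before sequencing was not tested. Both adaptors were then present in 19 of the 20 Lyz2-high cells in place of 20, as they were at a minimum of 5 or 50 FPKM. At a minimum of 50 FPKM, Fcgr2b was present in 11 of 31 cells, Fcgr1 in 1 and Fcgr4 in 0, and the median Lyz2-high cell held 4 members. Without the low-coding libraries, Fcgr3 was present in 17 of 21 cells (81.0%) and Fcer1g and Tyrobp in 21 of 21. Counting Fcgr2b only where its implied length was under 2000 bases gave 10 of 31 cells. With the Lyz2 line at 100 FPKM, 20 of 25 cells held both adaptors (80.0%), their rho was 0.59 and Fcgr2b exceeded the activating receptors in 10 of 25, and without B7 rho was 0.43 over 19 cells. With pseudocounts of 0.1 and 10 in place of 1, the mean log2 level was -1.86 and 3.62 in place of 0.82 for Fcgr1 and -2.98 and 3.38 in place of 0.18 for Fcgr4, as both are at 0 in most cells. On counts not scaled to length, the median log2 ratio of Tyrobp to Fcer1g was 0.04 in place of 0.41. Of the 5 genes most like Tyrobp 4 were listed again without a filter, and of those most like Fcer1g 1. At a minimum presence of 75%, 0 were listed again for either, because all 10 were present in 10 to 14 of the 20 cells and so were left out by that filter. The cause of these changes was not tested beyond the construction of each setting. Of the planned values that answer a comparison, 77 stayed within their interval, SD or leave-one-cell range, or listed at least 4 of 5 genes again. Among the 77 were the 10 of 25 and the ratio of 0.04. Another 16 planned values moved by more. No paired analysis was possible because there is 1 group, and the cells carry no shared numbers.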
